A study of Arabidopsis thaliana with 6 samples.

Results

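The genes described here were already abundant and even across wild-type plants and had more RNA in the mrg1 mrg2 double mutant. They were chosen by measured values: a gene had to be in the authors' deposited table of higher genes and meet 2 conditions on the wild-type raw counts, a mean of at least 500 reads over the 3 Col-0 libraries and a largest Col-0 count below 1.5 times the smallest. These conditions held for 56 of the 531 higher genes, among 552 listed genes in all. Both the level in Col-0 and the listing as higher therefore chose the members, so the difference between genotypes is given below as a description and not as a test.

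RNA was measured in leaves and stems of Arabidopsis thaliana seedlings of the mrg1 mrg2 double mutant and of the wild type Col-0 (ecotype Columbia-0), with 3 libraries each. Both genotypes were harvested at 12 days of age, 8 h after lights on, from soil-grown plants kept at 22 °C with a 16 h light and 8 h dark cycle. Both were stratified for 3 days at 4 °C and grown at a light intensity of 100 µmol. The 3 libraries of a genotype came from 3 independent experiments. The labels name no alleles, and since whole aerial parts were used, more RNA per cell and more cells of a type cannot be told apart.

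MRG1 and MRG2 are chromodomain proteins that bind a histone methylation mark laid over transcribed genes and work together with histone acetyltransferases. The double mutant is known for altered flowering time. Genes that are abundant in leaves include both housekeeping genes and stress genes with a high resting level, such as COR15A, whose chloroplast product shields membranes and stromal enzymes in the cold.

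The mutated gene MRG2 had 188, 111 and 96 raw counts in mrg1 mrg2, against 437, 380 and 403 in Col-0. It was thus lower in each mutant library, which goes with the genotype label, although a label without alleles does not require less RNA. MRG1 and the other 3 genes on a list of 5 MRG proteins and partners were not listed, so the MRG1 part of the label was not checked. Values exist only for listed genes, so library depth is not known from the counts, and the labels give a minimum read number per library. None of the 9 leaf photosynthesis genes, 7 root genes or 6 seed and floral organ genes used as tissue markers was listed, so the labelled tissue was not checked in these values.

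The increases of the abundant, steady genes were small and narrow in range. Their log2 fold changes (mrg1 mrg2 over Col-0) in the authors' deposited table ran from 0.59 to 1.17 with a median of 0.74, which is 1.51-fold to 2.25-fold with a median of 1.67-fold. The median over all 531 higher genes was 1.08 on the log2 scale. Only 8 of the 56 reached a log2 change of 1, a doubling (14.3%), against 307 of the 531 higher genes (57.8%). The 37 higher genes that were as abundant but missed the steadiness condition had a median of 1.07 and a maximum of 1.87, and the 438 genes with a lower Col-0 mean had a median of 1.14. The lower end of 0.59 was also the smallest log2 change over all 531 higher genes. The smallest listed change was 0.61 in the 37 abundant genes that were not steady and 0.59 in the 438 less abundant genes. The floor was thus nearly the same in the 3 sets, and whether a fold limit set it was not tested. Which changes pass a test also depends on level and spread, which the rule used. Nothing is therefore read from the contrast between these sets.

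**Figure D1:**
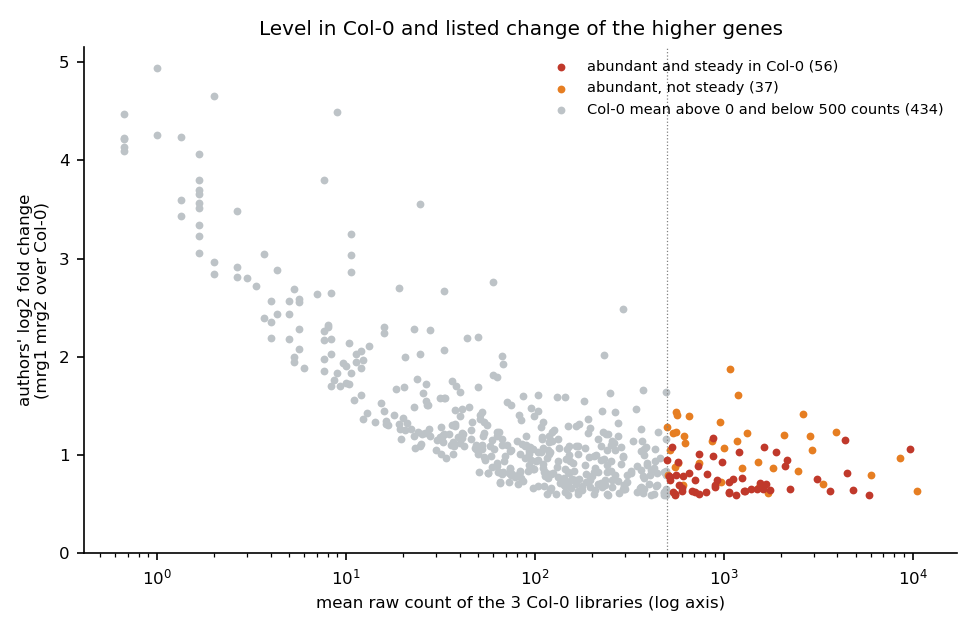
Mean raw count in Col-0 (log axis) against the authors' log2 fold change for the higher genes, with 1 point per gene. 4 of the 438 genes below 500 counts had no Col-0 read and are not drawn. The 56 steady genes (red) lie between 0.59 and 1.17, below many of the 37 abundant genes that were not steady (orange).

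The authors' test listed 2.31% of an inferred 22995 tested genes as higher, and every member is by definition one of them. Adjusted p-values of the members in the authors' deposited table ran from 2.93e-15 for AGL87 to 0.0441 for KUA1, with a median of 0.00072. In normalised counts, which are raw counts divided by library size factors, the lowest mutant library lay above the highest Col-0 library for 56 of 56 members, where the share over all higher genes was 99.8%. In raw counts this held for 55 of 56 (99.2% over all higher genes), the exception being AT5G41740. These shares describe genes that had been chosen for a difference, and nothing is read from them. The gap itself was modest: the lowest mutant value was 1.31 times the highest Col-0 value at the median member and 1.04 times at the closest.

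**Figure D2:**
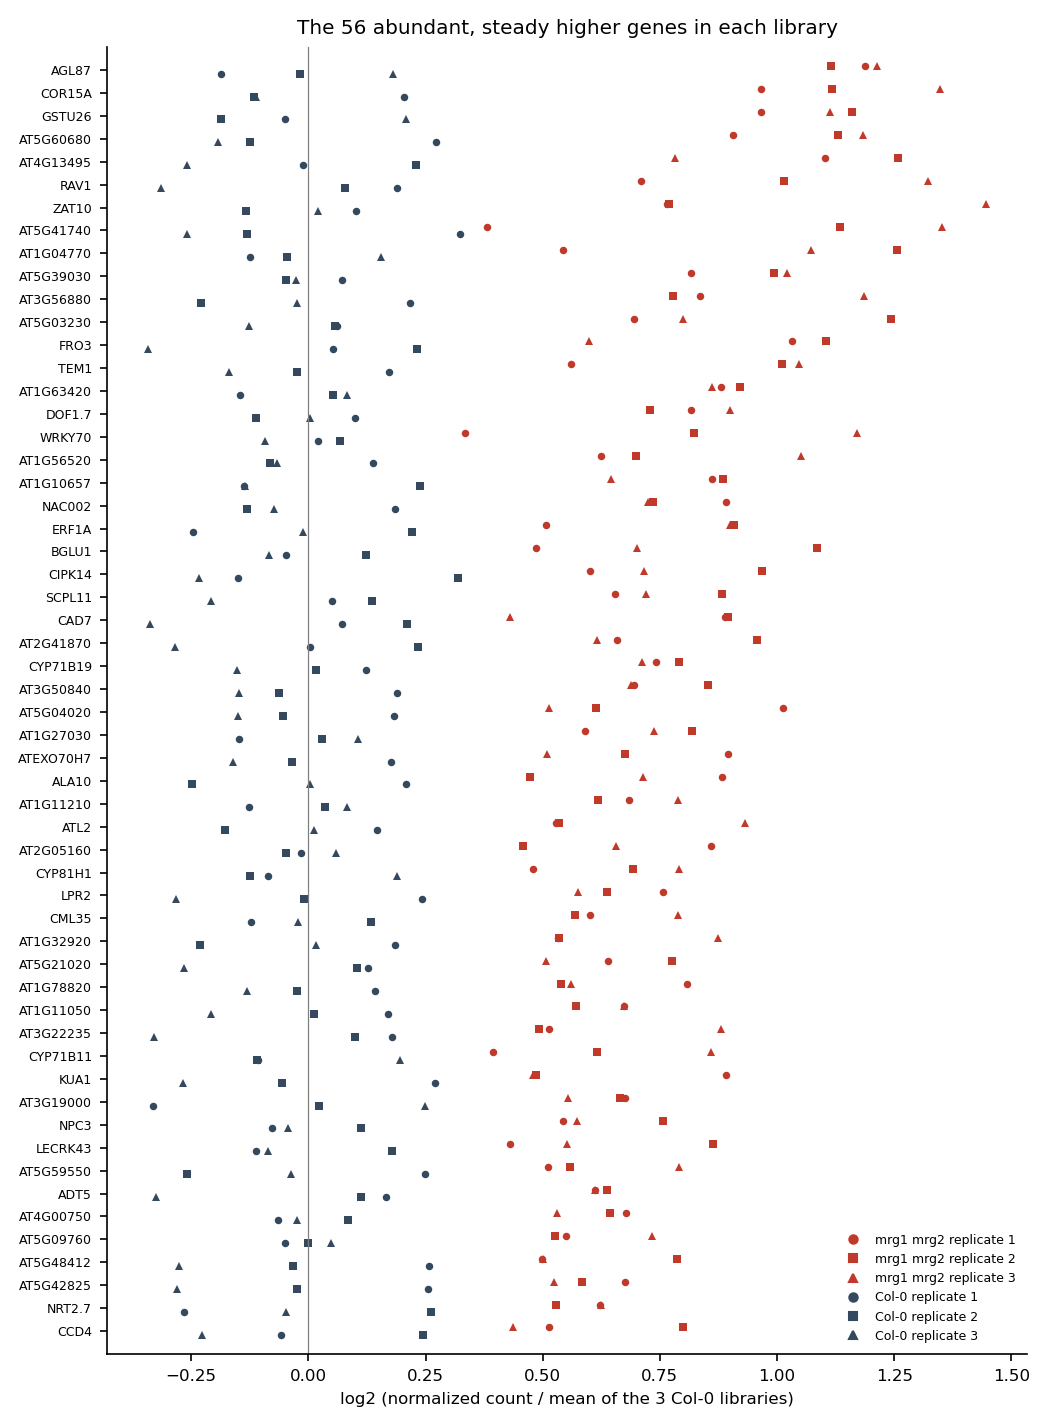
Normalised count of each of the 56 genes in each library, as log2 of the ratio to the mean of the 3 Col-0 libraries, ordered by the authors' fold change with the largest at the top. Red symbols are mrg1 mrg2 and dark symbols Col-0, and the shape gives the replicate number. The genotypes do not overlap for any of the 56 genes in normalised counts. The share over all higher genes, which were listed for a difference, is 99.8%.

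Transcription factor genes made up 9 of the 56 members, with a median log2 change of 0.82 in the authors' deposited table and a range from 0.63 to 1.17. AGL87 (AT1G22590, chromosome 1, 7981722 to 7984334, plus strand), which encodes a MADS-domain protein, had the largest change and the smallest adjusted p of all members. Its raw counts were 1896, 2029 and 1972 in mrg1 mrg2, against 779, 835 and 1004 in Col-0. The mutant libraries were almost level with each other and all far above the highest wild-type library. In normalised counts AGL87 averaged 1966 ± 69.0 in mrg1 mrg2 and 872 ± 112 in Col-0 (SD, n = 3 each), and its log2 change was 1.17 in the authors' deposited table.

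RAV1 and TEM1, which encode related proteins with an AP2 and a B3 DNA-binding domain, were both members. TEM1 represses the florigen gene FT, and RAV1 is known as a negative regulator of growth. RAV1 (AT1G13260, chromosome 1, 4542168 to 4543970) had 2940, 4090 and 4595 raw counts in mrg1 mrg2, against 2185, 1926 and 1539 in Col-0. TEM1 (AT1G25560, chromosome 1, 8981556 to 8983314) had 2974, 4571 and 4258 in mrg1 mrg2, against 2421, 2013 and 1909 in Col-0. For both genes replicate 1 was the lowest of the mutant and the highest of the Col-0 libraries, so the genotypes lay closest there. The authors' deposited table gives a log2 change of 1.04 for RAV1 (adjusted p 0.000102) and of 0.89 for TEM1 (adjusted p 7.72e-05).

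Among the stress and defence regulators, ZAT10 (AT1G27730), a zinc finger repressor induced by salt and cold, had 1951, 2204 and 3195 raw counts in mrg1 mrg2, against 1314, 1063 and 1240 in Col-0. WRKY70 (AT3G56400), which activates salicylic acid responses, had 5430, 8568 and 9898 in mrg1 mrg2, against 4651, 4582 and 4298 in Col-0. The wild-type libraries of WRKY70 were close to each other, whereas the mutant ones spread widely, with replicate 1 nearest to Col-0. The authors' deposited table gives a log2 change of 1.03 for ZAT10 (adjusted p 0.000251) and of 0.81 for WRKY70 (adjusted p 0.00802).

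By the authors' deposited table the log2 change was 0.78 for ERF1A, an ethylene response factor gene, 0.78 for NAC002 (ATAF1), a stress-related NAC gene, and 0.82 for DOF1.7, a Dof zinc finger gene. KUA1, a MYB-related gene that promotes leaf cell expansion, had 2287, 1942 and 1757 raw counts in mrg1 mrg2, against 1585, 1204 and 1090 in Col-0. In both genotypes KUA1 was highest in replicate 1 and lowest in replicate 3, and its same-numbered log2 differences were 0.62, 0.54 and 0.75. Its log2 change of 0.63 in the authors' deposited table was the smallest of the transcription factor members.

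**Figure D3:**
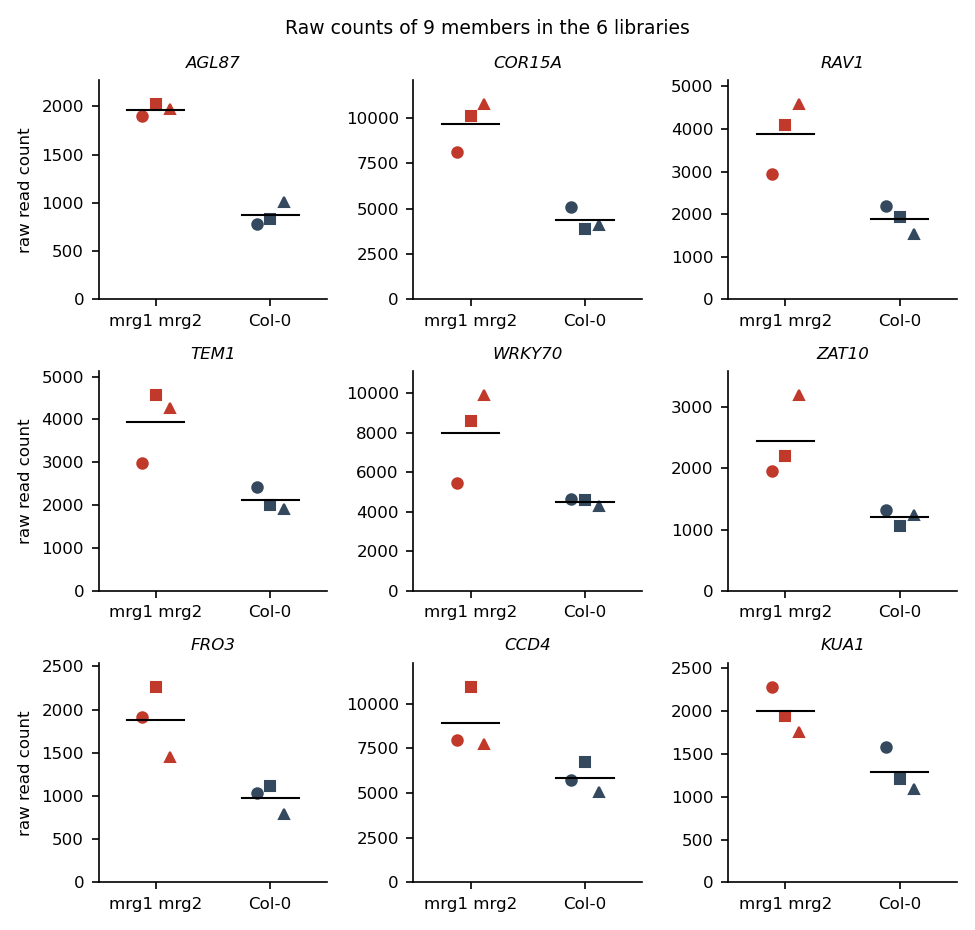
Raw read counts of 9 members in the 3 mrg1 mrg2 libraries (left) and the 3 Col-0 libraries (right), with a circle, square and triangle for replicates 1, 2 and 3 and a line at the mean. AGL87 is tight in the mutant, whereas RAV1, TEM1 and WRKY70 are lowest in mutant replicate 1.

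The promoters of RAV1, TEM1, ZAT10 and the cold-regulated gene COR15A are shown because they differ in the short motifs that stress-related factors recognise. All members are higher by the rule, so their shared direction says nothing about the motifs. Each sequence holds the 250 bases before the annotated start on the gene's own strand, in RefSeq's TAIR10.1 assembly. Capitals mark ACGTG (the core of the abscisic acid response element), TTGAC (the core of the W-box bound by WRKY factors) and CCGAC (the core of the cold and drought element bound by CBF factors), each on either strand.
COR15A, chr2:17712331-17712580, minus strand: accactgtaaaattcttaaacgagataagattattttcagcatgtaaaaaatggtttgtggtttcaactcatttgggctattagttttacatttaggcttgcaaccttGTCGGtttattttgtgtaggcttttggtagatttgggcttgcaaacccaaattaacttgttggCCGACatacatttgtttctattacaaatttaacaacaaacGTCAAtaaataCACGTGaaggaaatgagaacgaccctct
ZAT10, chr1:9649324-9649573, minus strand: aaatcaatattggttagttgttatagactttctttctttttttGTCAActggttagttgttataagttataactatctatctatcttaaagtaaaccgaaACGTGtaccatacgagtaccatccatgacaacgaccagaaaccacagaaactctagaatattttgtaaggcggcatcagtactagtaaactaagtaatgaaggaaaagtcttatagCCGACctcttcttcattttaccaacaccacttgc
RAV1, chr1:4541918-4542167, plus strand: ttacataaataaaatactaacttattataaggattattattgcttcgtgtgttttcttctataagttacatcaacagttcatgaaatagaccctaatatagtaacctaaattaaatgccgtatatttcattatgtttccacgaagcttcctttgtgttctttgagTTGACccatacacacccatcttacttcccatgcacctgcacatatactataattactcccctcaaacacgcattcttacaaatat
TEM1, chr1:8983315-8983564, minus strand: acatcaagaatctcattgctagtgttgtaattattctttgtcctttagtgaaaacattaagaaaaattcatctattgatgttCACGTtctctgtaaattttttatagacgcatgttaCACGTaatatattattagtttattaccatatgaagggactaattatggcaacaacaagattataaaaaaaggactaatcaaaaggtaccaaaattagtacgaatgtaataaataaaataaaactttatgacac
COR15A held 2 CCGAC matches, 1 TTGAC match and 2 overlapping ACGTG matches, which together spell the palindrome CACGTG. ZAT10 held 1 match of each motif. The related genes RAV1 and TEM1 shared none of these motifs in this window: RAV1 had 1 TTGAC match, and TEM1 had 2 ACGTG matches. A match is a string of letters and shows no binding.

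Signalling, immune receptor and protein turnover genes comprised 13 members, with a median log2 change of 0.75 in the authors' deposited table and a range from 0.63 to 1.01. Protein kinases were 4 of them: the receptor-like kinase genes AT5G39030, AT1G11050 and LECRK43, and CIPK14, whose product is switched on by calcium sensors of the CBL family. AT5G39030 had 839, 1068 and 989 raw counts in mrg1 mrg2, against 534, 468 and 498 in Col-0. Its Col-0 mean of exactly 500 put it at the edge of the rule, yet its adjusted p of 3.48e-12 was the second smallest of the members in the authors' deposited table, with a log2 change of 0.95. The corresponding log2 change was 0.77 for CIPK14, 0.64 for AT1G11050 and 0.63 for LECRK43.

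AT5G41740 and AT1G56520 encode intracellular immune receptors of the TIR-NBS-LRR class. AT5G41740 had 913, 1732 and 1829 raw counts in mrg1 mrg2, against 935, 650 and 624 in Col-0. In replicate 1 the mutant count was below the Col-0 count, and after division by the size factors the difference there was 0.06 on the log2 scale, against 1.26 and 1.61 in replicates 2 and 3. AT1G56520 had 1202, 1423 and 1651 in mrg1 mrg2, against 914, 747 and 792 in Col-0, again with the smallest gap in replicate 1. The authors' deposited table gives a log2 change of 1.01 for AT5G41740 (adjusted p 0.0117) and of 0.80 for AT1G56520 (adjusted p 0.00011).

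The other signalling members had log2 changes from 0.63 to 0.95 in the authors' deposited table. They were the calcium-binding protein gene CML35, the calmodulin-binding protein gene AT5G04020, the RING-type ubiquitin ligase gene ATL2 and another RING finger gene, AT5G59550, the NPH3 family gene AT3G50840, the VQ motif gene AT3G56880 and the remorin gene AT2G41870. AT3G56880 had the highest mutant counts of these, with 3680, 3980 and 4794 raw counts in mrg1 mrg2, against 2553, 1787 and 2159 in Col-0. Its 3 mutant libraries all lay above the highest Col-0 library, Col-0 replicate 1, as in 55 of the 56 members.

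Genes of metabolism and cell protection were 15 members, with a median log2 change of 0.66 in the authors' deposited table and a range from 0.59 to 1.15. COR15A had the largest change of this group and the second largest of all members. Its raw counts were 8106, 10135 and 10803 in mrg1 mrg2, against 5097, 3890 and 4089 in Col-0. Replicate 1 was again the lowest mutant and the highest Col-0 library. GSTU26 (AT1G17190, chromosome 1, 5875295 to 5876620), a tau class glutathione transferase gene of detoxification, had 987, 1271 and 1117 in mrg1 mrg2, against 520, 451 and 621 in Col-0. Its mutant libraries all exceeded the highest Col-0 library, as in 55 of the 56 members. The authors' deposited table gives a log2 change of 1.15 for COR15A (adjusted p 2.13e-10) and of 1.08 for GSTU26 (adjusted p 1.83e-10).

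The 3 cytochrome P450 members, whose products oxidise small molecules, had log2 changes close together, at 0.75 for CYP71B19, 0.66 for CYP81H1 and 0.63 for CYP71B11 in the authors' deposited table. By locus number CYP81H1 (AT4G37310) lies near the mutated gene MRG1, and whether this bears on its value was not tested. AT1G63420, annotated as an O-glucosyltransferase-like protein, had 1278, 1479 and 1288 raw counts in mrg1 mrg2, against 668, 731 and 782 in Col-0. In normalised counts the mutant libraries of AT1G63420 were among the most even of all members, at 1346 ± 28.6 in mrg1 mrg2 and 727 ± 61.3 in Col-0 (SD, n = 3 each). The authors' deposited table gives it a log2 change of 0.89 and an adjusted p of 6.41e-12.

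CCD4, whose enzyme cleaves carotenoids in plastids, had the smallest change of all members. It had 7991, 10970 and 7739 raw counts in mrg1 mrg2, against 5731, 6735 and 5090 in Col-0. Both genotypes were highest in replicate 2, and the log2 change was 0.59 with an adjusted p of 0.0255 in the authors' deposited table. ADT5, a gene of phenylalanine synthesis, was the most even member in the mutant, at 1087 ± 10.9 normalised counts in mrg1 mrg2 and 707 ± 124 in Col-0 (SD, n = 3 each), with a log2 change of 0.62. The other members were BGLU1, SCPL11, CAD7 (ELI3-1), the 2-oxoglutarate-dependent oxygenase gene AT3G19000, the probable methyltransferase gene AT4G00750, the pectinesterase-related gene AT5G09760 and the phospholipase gene NPC3, all with log2 changes between 0.61 and 0.78 in the authors' deposited table.

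Nutrient and membrane transport genes were 6 members, with log2 changes from 0.59 to 0.99 in the authors' deposited table. FRO3, a mitochondrial ferric reductase gene of iron handling, had 1918, 2268 and 1452 raw counts in mrg1 mrg2, against 1036, 1117 and 788 in Col-0. Replicate 2 was the highest and replicate 3 the lowest in both genotypes, and the same-numbered differences of FRO3 were 0.98, 0.87 and 0.94 on the log2 scale. AT1G04770, named SULFUR DEFICIENCY-INDUCED 2, had 1212, 2236 and 1788 in mrg1 mrg2, against 813, 818 and 986 in Col-0. LPR2, a multicopper oxidase gene of the phosphate response of roots, ALA10, a lipid flippase gene, NRT2.7, a nitrate transporter gene known from seeds, and ATEXO70H7, an exocyst subunit gene, were the others, with log2 changes of 0.66, 0.70, 0.59 and 0.70 by the same table.

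The last 13 members have no assigned role here or no protein. AT4G13495 (chromosome 4, 7842967 to 7846774, plus strand), annotated as a noncoding RNA, was the most abundant member, with 19827, 24845 and 16239 raw counts in mrg1 mrg2, against 9763, 10988 and 8208 in Col-0. Per kilobase of exon it was also the highest, at 19373 normalised counts in mrg1 mrg2 and 9285 in Col-0. Replicate 2 was the highest and replicate 3 the lowest of each genotype, the same order as for FRO3, and the same-numbered log2 differences were 1.11, 1.03 and 1.04. AT5G48412, the other noncoding member, had a log2 change of 0.60 in the authors' deposited table.

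AT5G60680 and AT5G03230, which share an uncharacterised DUF584 domain, reached 1.08 and 0.93 on the log2 scale by the authors' deposited table. AT5G60680 had 2917, 3832 and 3613 raw counts in mrg1 mrg2, against 2003, 1450 and 1449 in Col-0, with the narrowest gap in replicate 1. The RNA-binding zinc finger gene AT2G05160, the lectin-like gene AT1G78820, the stress tolerance gene AT3G22235 and AT1G10657, AT1G27030, AT1G11210, AT1G32920, AT5G21020 and AT5G42825 had log2 changes from 0.60 to 0.80 there.

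Of the members, 5 stood on lists of response genes that were drawn up with earlier results of these data known. The share listed as higher over all tested genes was 2.31%. Because of how the lists were chosen, nothing is read from their counts beside that share. Only 21 genes in all were listed as lower, the smallest drop being -1.06 on the log2 scale. Nothing is therefore read from the counts of lower genes either. Of 13 cold-regulated genes 4 were higher and 0 lower, and COR15A and ZAT10 were members. Of 22 rapid stress and touch genes 10 were higher and 0 lower, of which ERF1A and ZAT10 were members. Of 14 salicylic acid and immunity genes 2 were higher and 0 lower, with WRKY70 as a member, and of 18 flowering time genes 2 were higher and 1 lower, with TEM1 as a member. The 14 abscisic acid and water deficit genes had 4 higher genes and 0 lower ones, none of them a member, and 0 of the 10 circadian clock genes were listed. Zinc finger proteins by annotation wording were 4 of 56 members (7.14%) and 15 of 531 higher genes (2.82%), and protein kinases 4 of 56 (7.14%) and 35 of 531 (6.59%). Of the other wordings with at least 3 members, transcription factor matched 8.93% of members and 6.97% of higher genes. Cytochrome P450 matched 5.36% and 3.39%, transferase 5.36% and 6.40%, and hypothetical or unknown 5.36% and 6.78%. The 4 zinc finger genes are of different types by annotation, and no enrichment was tested.

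The spread of the mutant libraries was not a condition of the rule, although the authors' test used it. In normalised counts the largest mutant value was below 1.5 times the smallest for 50 of 56 members (89.3%), for 24 of the 37 abundant genes that were not steady in Col-0 (64.9%) and for 318 of the 438 less abundant genes (72.6%). The median coefficient of variation in mrg1 mrg2 was 12.5% for the members and 14.3% for the 475 other higher genes. In Col-0 it was 12.7% for the members, where the rule capped it, and 20.2% for the others. Counting error alone would give 2.44% at the members' mutant means, and the observed mutant variation was 5.12 times the counting error at the median gene. The widest mutant spreads were those of AT5G41740, WRKY70, AT1G04770, ZAT10 and RAV1, at 1.96, 1.78, 1.64, 1.60 and 1.53 times between the highest and lowest library. The tightest were those of ADT5, AT1G63420, CYP71B19, NRT2.7 and AGL87, between 1.02 and 1.07 times. Across the 93 abundant higher genes, the ratio of highest to lowest library in mrg1 mrg2 had a Spearman correlation of 0.30 with that in Col-0, as a description over genes that share libraries.

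The size of the difference varied with the replicate number. The median log2 difference of the members between same-numbered libraries was 0.63 in replicate 1, 0.74 in replicate 2 and 0.85 in replicate 3. All 56 members were higher in the mutant in each replicate number, as were all 531 higher genes. A 1.5-fold difference was exceeded in all 3 numbers by 26 of the 56 members and by 382 of the 531 higher genes. Replicate 1 gave the smallest difference for 33 of the 56 members, replicate 2 for 14 and replicate 3 for 9. Over all higher genes replicate 1 gave the smallest for 276 of 531. By role, it did so for 6 of 9 transcription factor genes, 10 of 13 signalling genes, 7 of 15 metabolism genes, 3 of 6 nutrient and transport genes and 7 of 13 others. In the 37 abundant genes that missed the steadiness condition, the median differences were 0.55, 1.23 and 1.44, and replicate 1 gave the smallest for 36 of them. Col-0 replicate 1 was the highest Col-0 library for 33 of these 37 genes and for 29 of the 56 members. The steadiness condition uses the Col-0 values that enter these differences, so nothing is read from the contrast between the sets.

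**Figure D4:**
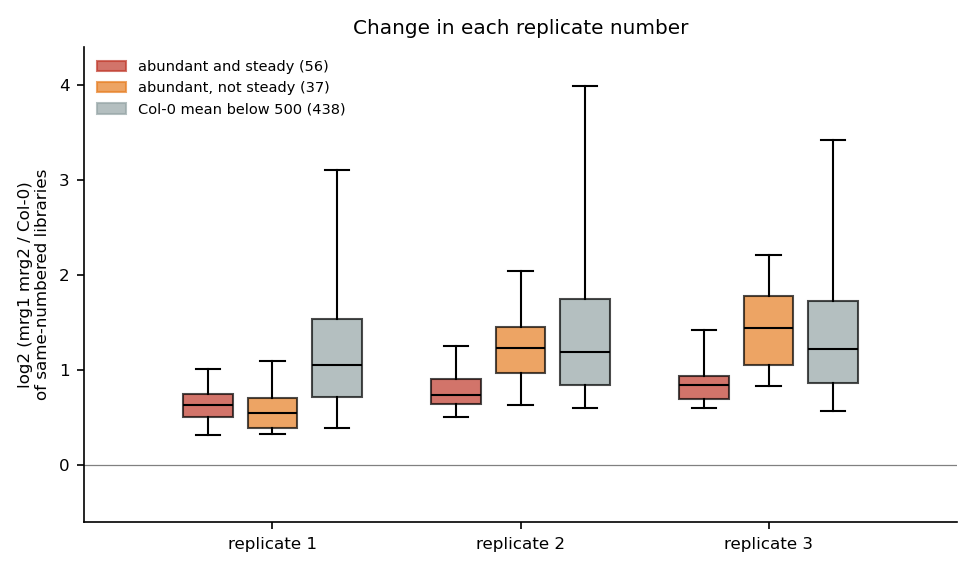
Log2 ratio of mrg1 mrg2 over Col-0 between libraries of the same replicate number, for the 56 abundant steady genes, the 37 abundant genes that were not steady and the 438 genes with a Col-0 mean below 500. Boxes show the quartiles and the median, and whiskers the 5th and 95th percentiles over genes. The medians of the steady genes are 0.63, 0.74 and 0.85, and those of the abundant unsteady genes 0.55, 1.23 and 1.44.

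The thresholds fell among genes with similar values. Just inside the level threshold lay AT5G39030, NAC002 and BGLU1 with Col-0 means of 500, 514 and 519 raw counts, and just outside it APA2, AT4G03820 and PYD4 with 497, 497 and 492. APA2, an aspartic protease gene, had 1600, 1502 and 1539 raw counts in mrg1 mrg2, against 591, 484 and 415 in Col-0, a log2 change of 1.64 in the authors' deposited table that is larger than that of any member. Just inside the steadiness threshold lay AT5G41740, AT3G19000 and AT5G59550, with ratios of the largest to the smallest Col-0 count of 1.498, 1.495 and 1.493. Just outside lay P5CSA, UGT76C5 and AT5G50450 with ratios of 1.504, 1.511 and 1.517.

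Gene structure was not used by the rule. Of the 56 members 54 were protein-coding. By the transcript with the longest coding sequence, these 54 had a median of 2 exons, against 2.5 in the 452 other protein-coding higher genes and 4 in the 27444 nuclear protein-coding genes. Genes with a single exon were 23 of the 54 (42.6%), against 47.2% of the 36 abundant protein-coding genes that were not steady, 32.7% of the other higher genes and 20.4% of all. AGL87, RAV1, TEM1, ZAT10 and CCD4 were among them. The median gene length was 2124 bp for members and 2078 bp for all, and the median protein had 395 and 348 residues. Chromosome 1 held 19 of the 54 members (35.2%), against 31.4% of the other higher genes and 26.1% of all.

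For 6 members a directly neighbouring protein-coding gene was also among the 552 listed genes. The same share was not computed for the other higher genes or for all genes, so nothing is read from this count. AT5G41740 lies beside AT5G41750, ERF1A beside ERF6, ATEXO70H7 beside the heat shock gene HSP18.1, ALA10 beside CML16 and LPR2 beside ATMYBL2. CYP71B11 lies between CIPK25 and its relative CYP71B12.

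The counts of 11 members may include reads of other genes. More than 10% of the exon bases lay under exons of a gene on the opposite strand for 6 members, among them AT1G11050 (99.2%), AT5G42825 (98.7%) and ATEXO70H7 (96.8%), and it is not stated whether counting used the strand. The noncoding AT4G13495 shares 17.1% of its exon bases with genes on its own strand. More than 10% of the exonic 50-base windows occur elsewhere in the genome for AT3G22235 (70.8%), CYP71B19 (20.9%), AT5G48412 (16.3%) and AT5G41740 (11.8%), so their values are uncertain. Without these 11 genes the median log2 difference was 0.75.

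In percentage points, the W-box core TTGAC was the motif, of the 9 searched, whose share differed most between the members and other genes. In the window from 250 bases before to 50 after the annotated start, on both strands, TTGAC occurred in 40 of 54 members (74.1%, exact binomial 95% interval 60.3 to 85.0%). It occurred in 54.0% of the 452 other higher genes and in 50.5% of 27443 nuclear protein-coding genes. ACGTG occurred in 22 of 54 (40.7%, interval 27.6 to 55.0%), against 28.3% and 26.7%, and CACGTG, which contains ACGTG, in 7 of 54 (13.0%), against 5.97% and 7.68%. CCGAC occurred in 7 of 54 (13.0%), against 11.7% and 15.0%. The heat shock element GAANNTTC occurred in 18.5% of members, against 12.8% and 11.6%, and TATAAA in 57.4%, against 61.5% and 52.1%. The GCC-box GCCGCC, the evening element AAATATCT and the telo-box AAACCCTA each occurred in 1 member (1.85%). The GCC-box was found in 2.21% of other higher genes and 2.57% of all, the evening element in 6.64% and 5.65%, and the telo-box in 2.21% and 6.22%. The members were not drawn at random, so no test was made, and base composition was not compared. The intervals are not adjusted for the search of 9 motifs. The abundant genes that were not steady were not counted separately, so a trait of abundant higher genes cannot be told from one of the members.

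**Figure D5:**
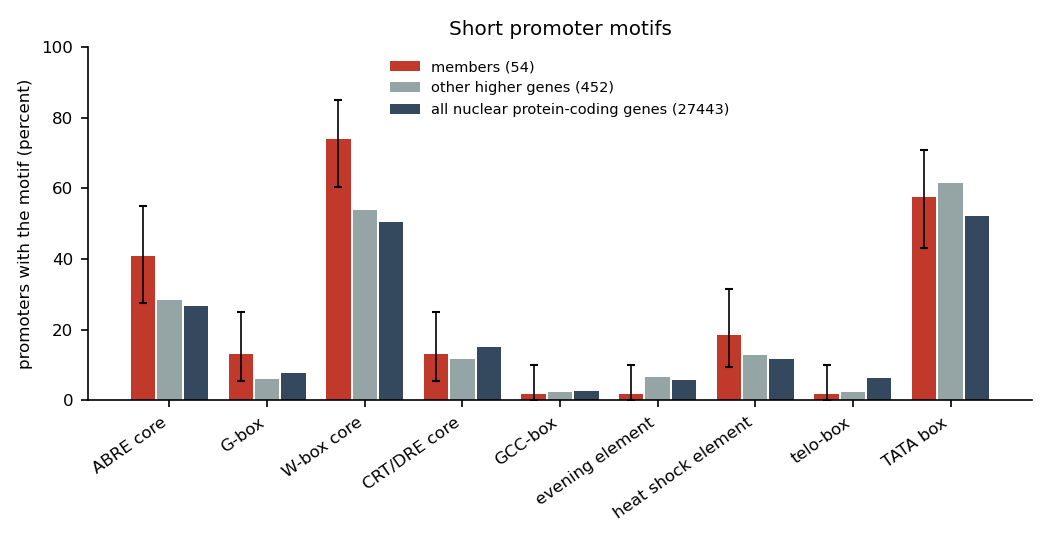
Share of promoters with each motif (percent) in 54 protein-coding members, 452 other protein-coding higher genes and 27443 nuclear protein-coding genes, with exact binomial 95% intervals for the members. The W-box core is found in 74.1% of members and 50.5% of all genes, and the CRT/DRE core in 13.0% and 15.0%.

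All listed genes were refitted to describe how the members' calls varied with the tool and the libraries within these refits. A gene passed if its p did not exceed 0.00161, the largest p among the authors' listed genes. With edgeR's quasi-likelihood test 18 of the 56 members passed, where 70.4% of all higher genes did. With DESeq2 43 of 56 passed, where 82.9% of all higher genes did. With the replicate number as a block, 24 members passed by edgeR (72.1% of all higher genes) and 43 by DESeq2 (74.0%). With equal size factors 15 members passed by edgeR (70.6% of all higher genes), and with only genes of at least 10 counts on average 18 did (68.9%). All 18 of the unblocked edgeR fit were among the 43 of the unblocked DESeq2 fit, and 13 members passed neither. The 18 that passed without the block included AGL87, COR15A, GSTU26, RAV1, ZAT10, NAC002 and FRO3, and not TEM1, WRKY70, ERF1A, KUA1 or CCD4. No member changed sign in these refits. With the block, RAV1 and AT1G56520 no longer passed in edgeR, while ERF1A, AT4G13495, BGLU1, CIPK14, SCPL11, AT2G41870, AT5G04020 and ALA10 did. In DESeq2, LPR2, AT1G32920, KUA1 and CCD4 passed only with the block, and AT1G11050, NPC3, AT4G00750 and AT5G09760 only without it. The edgeR count was 28 without Col-0 replicate 1 (73.4% of all higher genes), 6 and 5 without Col-0 replicate 2 or 3 (44.8% and 46.9%), and 13, 3 and 6 without mutant replicate 1, 2 or 3 (51.0%, 35.8% and 47.8%). AGL87, GSTU26 and AT5G39030 passed with each library left out in turn. The refits use only listed genes, which had been listed for a difference, and 3 against 3 libraries cannot give an exact two-sided permutation p below 0.1. The submitters' notes also name DESeq2, yet its refit here passed only 43 of the 56 members. The refits thus differ from the authors' test in the genes fitted as well, and the effects of tool and gene set were not separated.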

How the data were processed

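RNA-seq of 3 mrg1 mrg2 and 3 Col-0 libraries was used. Per the labels' protocols, libraries were stranded, made from total RNA after removal of ribosomal RNA, and read as 50 bp single ends. The submitters' processing notes name TAIR10 and DESeq2. Which aligner and which counting tool were used is not given in the sources used here. Deposited counts are raw, whole numbers of reads per gene, per the file headers. The p-value, adjusted p-value and log2 fold change (mrg1 mrg2 over Col-0) are the authors' own.

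Size factors (0.954 to 1.07) were recovered by least squares from the deposited log2 fold changes of 350 genes with at least 50 counts in each library. The residual SD was 0.00066 in log2 units with these factors and 0.00919 with equal ones. Their common scale was set to a geometric mean of 1. Same-numbered ratios used a pseudocount of 0.5. How many genes the authors tested (22995) was inferred from the ratio of adjusted to raw p-values, and 195 unlisted genes whose adjusted p would fall in the listed range were not analysed here. Refits of all 552 genes used these factors in edgeR 4.0.16 (main) and DESeq2 1.42.0 under R 4.3.3, both without a block and with the replicate number as one, and were tested on simulated data. To see whether replicate numbers pair the libraries, deviations of 466 genes from their genotype mean were correlated between genotypes. The coefficient was 0.36, 0.48 and 0.33 for the same number and -0.38 to 0.02 otherwise. The numbers were therefore taken as pairs in the same-numbered ratios and the blocked fits, on the data and not on the labels. The main edgeR fit and the fits with a library left out stayed unpaired, as no paired design is stated. The genes behind these coefficients are not independent. Between replicates, chi-square per degree of freedom was 11.4 to 27.8, so none was a repeated library. P-values rest on the spread between experiments, and the binomial intervals cover counting error only.

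All 56 members matched the TAIR10.1 annotation, with the same strand. TAIR10.1 coordinates, promoters and 50-base windows came from that genome. The members, gene lists and tests were chosen with earlier results of these data known. Named members are the 12 with the largest change, the 8 most abundant, the 5 most and 5 least even in the mutant, the 3 with the smallest adjusted p, those nearest the thresholds, and those on a list or in a family of at least 3. The rest are named to account for every member, and the role groups were assigned by hand after the members were known.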

Additional observations from a re-analysis of the deposited data

How the results depend on the processing

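The median log2 difference of the members was 0.74 and moved by less than the spread between replicate numbers (SD 0.11) under all 15 alternatives run. It was 0.70 to 0.78 with 1 library left out, and 0.75 as the median of same-numbered ratios, the paired form with a replicate block. The number of members depended on the rule: 108 with a Col-0 mean of at least 250 counts, 27 with at least 1000, and 27 with a largest Col-0 count below 1.3 times the smallest. The number that passed the edgeR refit, 18, was the value least stable. It was 43 with DESeq2 and 43, not all the same members, with DESeq2 and the block. With edgeR and the block it was 24, of which 16 were among the 18, and with 1 library left out it was 3 to 28. It was 47, 5 and 11 under those 3 rules. The cause of the difference between the tools was not tested. Without the 11 members whose reads other genes may share, an alternative chosen after seeing the data, it was 15. Mutant counts within 1.3 times of each other were found for 32 members, in place of 50 within 1.5 times. With the window ending at the annotated start, the share with TTGAC was 70.4% and that with ACGTG 38.9%. Since unlisted genes have no counts here, size factors estimated over all genes, depth and low-count filters over all genes could not be tried.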
